A study of Mus musculus with 6 samples.

Results

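The SR proteins and the hnRNP and tissue-type splicing regulators were taken as every Ensembl gene whose symbol began with Srsf, Hnrnp, Celf, Mbnl, Rbfox, Ptbp, Elavl, Esrp or Tra2, leaving out symbols that mark a pseudogene (-ps). This gave 54 genes of the 60193 listed, namely 11 Srsf, 2 Tra2, 20 Hnrnp, 3 Ptbp, 6 Celf, 3 Mbnl, 3 Rbfox, 4 Elavl and 2 Esrp genes, and 4 pseudogene symbols were left out. They were compared between metaphase II (MII) oocytes that had matured either in culture (IVM, in vitro) or in the animal (IVO, in vivo), measured by RNA-seq in 3 pools per group. All 6 pools came from mice of the outbred ICR stock aged 42 to 45 weeks, near the end of their reproductive life, and each pool held 20 oocytes from 3 mice. Mice of both groups had received PMSG. IVM oocytes were taken from antral follicles, freed of cumulus cells by pipetting and cultured in M16 medium for 12 h. IVO oocytes were ovulated after an hCG injection, collected from the oviduct 14 h later and freed of cumulus cells with hyaluronidase, so the groups differed in hormone, surroundings, time and the way cumulus cells were removed. A pool is the replicate here. IVM donors were killed for their ovaries at the time after PMSG when IVO donors received hCG. No mouse could therefore supply both groups. What the number shared by an IVM and an IVO pool stands for is not given in the sources used here.

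Splicing regulators decide which exons and splice sites of a pre-mRNA are used. SR proteins bind exons through RNA recognition motifs and recruit the spliceosome through a tail of arginine and serine repeats, which SRPK and CLK kinases phosphorylate, whereas many hnRNP proteins bind silencers and oppose them. The CELF, MBNL, RBFOX, PTBP, ELAVL and ESRP proteins bind short motifs and set tissue-type splicing, and several of them also control the stability and translation of mRNA in the cytoplasm. Fully grown oocytes stop transcribing before meiosis resumes, so the mRNA of MII oocytes is a store made earlier, which is polyadenylated, translated and degraded during maturation.

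The values are FPKM (fragments on a gene, scaled for its length and for the library's size) as the authors deposited them. Depth, inferred from the steps between low values, came to 16500000 to 19520000 fragments per IVM sample and 18040000 to 18160000 per IVO sample, and 3 fragments on a transcript of 1000 bases were worth 0.196 to 0.232 FPKM, which covers counting error only. The inferred mean fragment length was 208 to 218 bases in the IVM group against 250.0 to 268 bases in the IVO group, and its part in the results was not tested. All 12 oocyte markers passed the filter, with a summed level of 27569 to 34242 FPKM per IVM sample and 26101 to 30461 FPKM per IVO sample, although 5 of them (Zp1, Zp2, Zp3, Nlrp5 and Bmp15) were lower in IVO oocytes (adjusted p under 0.05 in limma). These 5 were 41.7% of the list, against 21.5% lower among all tested genes. The 16 granulosa and cumulus markers summed to 31.97 to 63.6 FPKM per IVM sample and 36.9 to 59.4 FPKM per IVO sample. The 4 that passed the filter were found in all 6 samples, with overlapping groups. These were Cyp19a1 (16.25 to 23.1 FPKM), Fshr (6.14 to 16.3 FPKM), Amhr2 (3.14 to 27.9 FPKM) and Kitl (1.14 to 2.5 FPKM). Amh and Pgr were at 0 in all 6. Of the 12 under the filter, 3 (Has2, Ptx3 and Tnfaip6, genes of cumulus expansion) were higher in all 3 IVO samples (0.07 to 0.49 FPKM) than in all 3 IVM samples (0 to 0.14 FPKM), and none were lower in all 3. Among tested genes, which lie above the filter, 9.62% were higher in all 3 IVO samples. Ptx3 rests on few fragments (0.07 to 0.17 FPKM in IVO). Ptgs2, another such gene, overlapped (0.04 to 0.19 FPKM in IVM and 0.16 to 0.5 FPKM in IVO). The 6 oviduct markers summed to 22.8 to 30.6 FPKM per IVM sample and 26.6 to 29.98 FPKM per IVO sample, nearly all of it Cdh1 and Epcam. Cdh1 and Epcam were thus also found in the IVM samples, whose oocytes had not been in the oviduct. The 4 other oviduct markers lay at 0 to 0.39 FPKM. The 5 blood markers summed to 0 to 0.21 FPKM per IVM sample and 0.01 to 4.13 FPKM per IVO sample. The part of other cells in the results was not tested.

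The cDNA was primed on poly(A) tails, so the end of each transcript is where the libraries start, and the last bases of the GRCm39 reference transcripts were read for the 9 genes that passed the test below. A polyadenylation signal (AATAAA or ATTAAA on the transcript strand, within the last 40 bases) was present in 5 of the 9. The capitals mark it, and each stretch is printed 5′ to 3′ in the sense of the transcript.
Srsf3, chr17:29262311-29262340, plus strand: taaaagattattATTAAAagacactgactt
Hnrnph3, chr10:62850445-62850474, minus strand: tgttattaatgtAATAAAtgtcaacatggg
Hnrnpr, chr4:136086725-136086754, plus strand: tggtgttactttAATAAActgttgtctgaa
Esrp2, chr8:106853862-106853891, minus strand: gcactcacataaAATAAAtacatctttaaa
Rbfox3, chr11:118380442-118380465, minus strand: gactgtacaccaAATAAAtagggc
The signal was found in 38 of the 49 tested members (77.6%) and in 7539 of 10344 tested protein-coding genes (72.9%). The 2 of the genes below that were higher in IVO oocytes and held the signal were Srsf3, with the variant form, and Hnrnph3, and the 3 that were lower were Hnrnpr, Esrp2 and Rbfox3. A cytoplasmic polyadenylation element, the motif that lengthens poly(A) tails during maturation (TTTTAT or TTTTAAT, within the last 100 bases), was found in 6 of the 49 members (12.2%) against 1934 of the 10344 genes (18.7%), and in none of the 9. These matches describe the letters of 1 reference transcript per gene and say nothing of the ends used in these oocytes.

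Of the 54 members, 49 had a mean of at least 1 FPKM over the 6 samples and were tested. By limma with Benjamini-Hochberg adjustment over all 18818 tested genes, 5 members were higher in IVO oocytes (Srsf5, Srsf3, Tra2b, Hnrnph3 and Hnrnpf), 4 were lower (Hnrnpr, Rbfox3, Esrp2 and Hnrnpul1) and 40 did not pass at an adjusted p under 0.05. The 5 higher members were 10.2% of those tested, against 1.87% of all tested genes, and the 4 lower members were 8.16%, against 21.5%. With |log2FC| ≥ 1 as well, the threshold for DEGs, Srsf5 was the 1 member higher (0.606% of all genes) and Hnrnpr the 1 lower (17.9%). In pooled oocytes, fewer cells and less RNA per cell cannot be told apart, and each log2FC is an IVO minus IVM difference of log2(FPKM + 1), which understates the change of low genes.

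The median member lay higher than the median gene of the transcriptome, with a log2FC of 0.16 against -0.30 over all tested genes. All members are protein-coding, and over the 10344 tested protein-coding genes the median was -0.16. A log2FC above 0 was found for 30 of the 49 (61.2%) and for 34.0% of all genes, and 39 of the 49 (79.6%) lay above the median of all genes, as 50.0% of all genes did. The 3 IVO values were all above the 3 IVM values for 15 members (30.6%, against 9.62% of all genes) and all below them for 8 (16.3%, against 32.6%). Among the 13154 tested Ensembl genes alone, from which the members were drawn, 2.18% were higher and 18.4% lower at an adjusted p under 0.05, 38.6% had a log2FC above 0, and the groups were apart with higher IVO values in 11.8% and with lower IVO values in 29.0%. After median-ratio scaling of the libraries, which moved the median of all genes from -0.30 to -0.04, 12 members were higher (24.5%, against 7.19%) and none of the 49 was lower by limma (against 13.0%, with Hnrnpr and Rbfox3 the 2 lower at an unadjusted p under 0.05), while the member median was 0.48. Of the tested protein-coding genes, 10.2% were higher and 10.9% lower after this scaling. DEGs after this scaling were 5 members higher (2.06% of all genes) and none of the 49 lower (11.2%), and 39 members had a log2FC above 0 (79.6%, against 48.2%). With the trend of each library with gene length removed, 10 members were higher (20.4%, against 6.92%) and none lower by limma (against 9.65%, with 4 lower at an unadjusted p under 0.05), 3 were higher as DEGs (2.96% of all genes) and none lower (8.03%), and 37 had a log2FC above 0 (75.5%, against 52.8%). The summed level of the 54 members was 3782 to 4417 FPKM in an IVM sample and lower, 3457 to 3649 FPKM, in an IVO sample. Since the FPKM of all genes summed to 1826738 to 2111777 in an IVM sample and 1560813 to 1643682 in an IVO sample, the members' share of all FPKM lay the other way, with 0.180% to 0.217% per IVM sample against 0.221% to 0.232% per IVO sample. Read as a description only, these counts carry no test over the list.

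**Figure D1:**
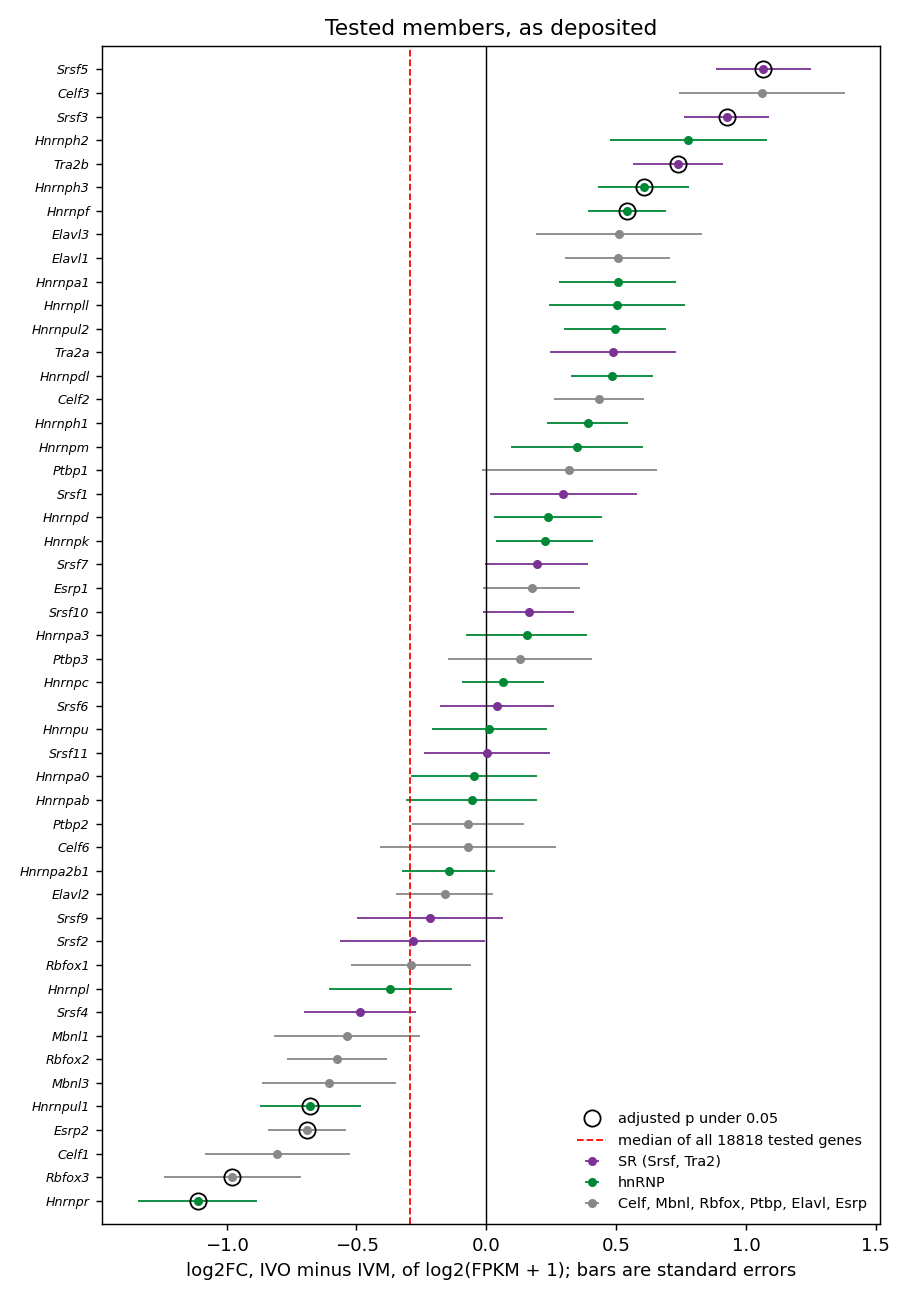
The log2FC (IVO minus IVM, of log2(FPKM + 1)) of the 49 tested members as deposited, with standard errors as bars (3 samples per group). Open circles mark the 9 members with an adjusted p under 0.05, and the dashed line marks the median of all 18818 tested genes, -0.30, above which 39 members lie.

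Among the SR proteins, 3 of the 12 tested rose in IVO oocytes and none fell by limma (3 and 0 at an unadjusted p under 0.05), so 25.0% were higher against 1.87% of all tested genes. Srsf5 (ENSMUSG00000021134, GRCm39 chr12:80986436-80997630, plus strand), an SR protein also known as SRp40, was measured at 27.6, 32.9 and 31.9 FPKM in IVM samples 1 to 3 and 65.2, 73.4 and 58.7 FPKM in IVO samples 1 to 3. Every IVO value lay far above every IVM value, the mean being 2.13 times as high (30.8 ± 2.8 against 65.7 ± 7.38 FPKM, SD, n = 3 each). Its log2FC was 1.07 (SE 0.183, adjusted p = 0.00795 in limma). Srsf3 (ENSMUSG00000071172, chr17:29251321-29262347, plus strand), the smallest SR protein, which also takes part in mRNA export and is required for oocyte meiosis, was measured at 50.4, 59.8 and 56.9 FPKM in IVM and 108, 109.6 and 102 FPKM in IVO samples. The groups did not overlap, and the IVO mean was 1.91 times the IVM mean (log2FC 0.93, SE 0.165, adjusted p = 0.00903 in limma). These were the 2 members that passed the test whichever sample was left out, with adjusted p-values of 0.0165 to 0.0339 for Srsf5 and 0.0194 to 0.0377 for Srsf3 in limma. Srsf5 fell short of the DEG fold threshold without IVM replicate 1 (log2FC 0.99) or IVO replicate 2 (log2FC 0.99).

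Tra2b (ENSMUSG00000022858, chr16:22063266-22084824, minus strand), the transformer-2 homolog that binds purine-rich exonic enhancers, was measured at 31.5, 28.2 and 34.3 FPKM in IVM and 53.1, 53.9 and 51.2 FPKM in IVO samples. Its IVO values lay within 3 FPKM of each other and all above the IVM values (log2FC 0.74, SE 0.172, adjusted p = 0.0226 in limma). Leaving out IVM replicate 1 or any IVO replicate ended the call, with an adjusted p of up to 0.0789. Its relative Tra2a was measured at 3.05, 2.4 and 4.07 FPKM in IVM and 5.58, 4.17 and 4.65 FPKM in IVO samples, and the groups did not overlap either, but the difference did not pass (log2FC 0.49, adjusted p = 0.193 in limma).

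The other SR genes did not pass. Srsf4, a long SR protein and the most abundant of the family, was measured at 183, 155 and 133 FPKM in IVM and 99.7, 98.2 and 139 FPKM in IVO samples, with 1 IVO value inside the IVM range (log2FC -0.49, adjusted p = 0.148 in limma). Srsf7, the close relative of Srsf3 with a zinc knuckle, stood at 88.3, 81.8 and 64.6 FPKM in IVM and 79.05, 87.5 and 102 FPKM in IVO samples, and its groups overlapped (log2FC 0.19, adjusted p = 0.527). Srsf10, which represses splicing when it is dephosphorylated, ranged from 50 to 64.5 FPKM over all 6 samples. Srsf2, the nuclear speckle protein SC35, was at 10.5, 11.1 and 20.4 FPKM in IVM and 10.2, 11.8 and 10.6 FPKM in IVO samples, where IVM replicate 3 stood apart from the other 5 samples. Srsf11 ranged from 8.31 to 14.6 FPKM. Srsf1, the founding member of the family, Srsf6 and Srsf9 were low, at 1.5 to 4.11 FPKM in every sample. Srsf12 was not tested, being listed at 0 to 0.09 FPKM, near the level of 3 fragments (0.0564 to 0.0668 FPKM). The summed level of the 13 SR and Tra2 genes was 434.8 to 471 FPKM in an IVM sample and 504 to 552 FPKM in an IVO sample. They took up 0.0206% to 0.0238% of all FPKM in an IVM sample and 0.0323% to 0.0336% in an IVO sample, and these groups did not overlap.

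**Figure D2:**
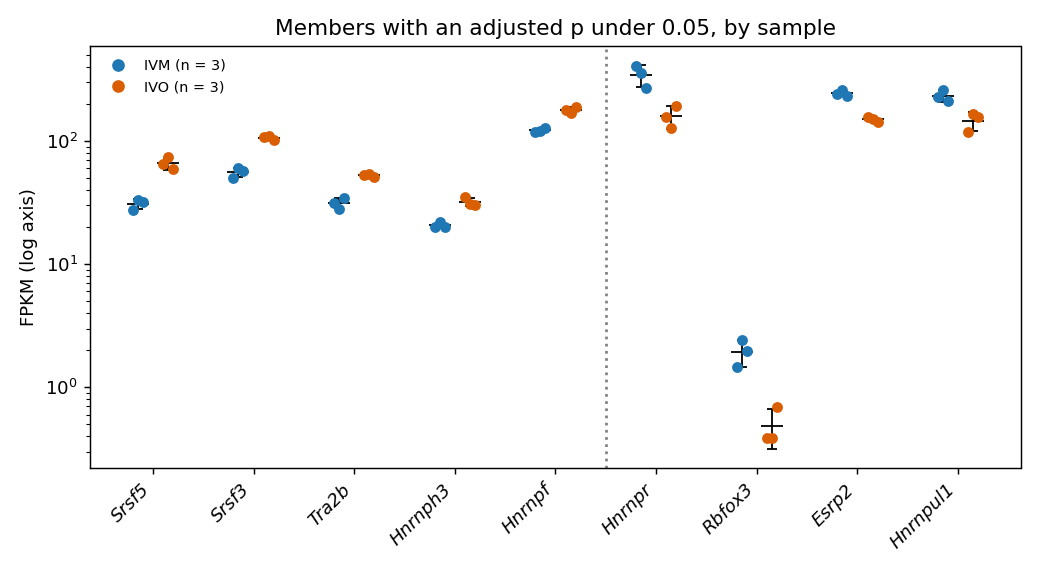
FPKM on a log axis of the 9 members with an adjusted p under 0.05, with 1 point per sample and black lines for the mean and SD of each group. The 5 genes left of the dotted line were higher in all 3 IVO than in all 3 IVM samples and the 4 on the right were lower in all 3, and Rbfox3 lies near 1 FPKM while the others lie above 19 FPKM.

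Of the 20 hnRNP genes, all of them tested, 2 rose (10%, against 1.87% of all tested genes), 2 fell (10%, against 21.5%) and 16 did not pass. The 2 that rose belong to the group that binds runs of guanines. Hnrnpf (ENSMUSG00000042079, chr6:117877257-117905485, plus strand) was measured at 119, 121 and 126 FPKM in IVM and 178, 169 and 187 FPKM in IVO samples, 1.46 times as high in the mean (log2FC 0.54, SE 0.151, adjusted p = 0.0398 in limma). Hnrnph3 (ENSMUSG00000020069, chr10:62849329-62860506, minus strand) was measured at 19.9, 21.8 and 20.1 FPKM in IVM and 34.9, 31.02 and 29.97 FPKM in IVO samples, again with no overlap (log2FC 0.61, SE 0.175, adjusted p = 0.0449 in limma). Both calls lay close to the threshold. Hnrnph3 lost its call whichever sample was left out (adjusted p up to 0.15), and Hnrnpf kept it only without IVM replicate 3 (up to 0.115 in the other fits). The remaining members of the group pointed the same way without passing as deposited, and whether they passed depended on the scaling. Hnrnph1 was measured at 99.8, 108 and 97.5 FPKM in IVM and 135, 127 and 138 FPKM in IVO samples (log2FC 0.39, adjusted p = 0.114 as deposited, 0.0309 after median-ratio scaling, 0.0529 with the length trend removed). Hnrnph2 stood at 5.15, 9.83 and 9.23 FPKM in IVM and 15.3, 17.4 and 10.4 FPKM in IVO samples (log2FC 0.78, adjusted p = 0.108 as deposited, 0.047 after median-ratio scaling, 0.0571 with equal sums, 0.0648 with the length trend removed). In none of these 4 genes did an IVO value fall below an IVM value.

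The 2 hnRNP genes that fell were among the most abundant. Hnrnpr (ENSMUSG00000066037, chr4:136038247-136086758, plus strand), a relative of Syncrip that binds and transports mRNA, was measured at 404, 358 and 270.0 FPKM in IVM and 158, 126 and 192 FPKM in IVO samples. The IVM mean was 2.17 times the IVO mean, and the highest IVO value stayed below the lowest IVM value (log2FC -1.11, SE 0.23, adjusted p = 0.0149 in limma). Without IVM replicate 1 the adjusted p was 0.0534, without IVM replicate 2 it was 0.0529, and without IVO replicate 2 it passed with a log2FC of -0.96. Hnrnpul1 (ENSMUSG00000040725, chr7:25420577-25454388, minus strand), a nuclear protein related to the scaffold factor Hnrnpu, was measured at 228, 261 and 209 FPKM in IVM and 118, 165 and 155 FPKM in IVO samples (log2FC -0.68, SE 0.194, adjusted p = 0.0435 in limma). This call was lost whichever sample was left out (adjusted p 0.0602 to 0.134 in limma). After median-ratio scaling neither passed, with a log2FC of -0.79 (adjusted p = 0.0678) for Hnrnpr and -0.35 (adjusted p = 0.287) for Hnrnpul1.

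The 14 other hnRNP genes that did not pass spanned the whole range of levels. Hnrnpa1, the protein that counters SR proteins at many exons, was measured at 140.1, 218 and 128 FPKM in IVM and 222, 225 and 227 FPKM in IVO samples, and the 3 IVO values lay within 5 FPKM of each other while IVM replicate 2 stood near them (log2FC 0.51, adjusted p = 0.154 in limma). Without that sample it passed (adjusted p = 0.0283). Hnrnpc, which binds uridine tracts and keeps cryptic exons out, ranged from 176 to 211 FPKM, and Hnrnpk, a KH-domain protein that binds cytosines, from 142 to 225 FPKM. Hnrnpa2b1, a nuclear reader and carrier of RNA, stood at 112, 146 and 114 FPKM in IVM and 108, 108 and 118 FPKM in IVO samples (log2FC -0.15, adjusted p = 0.601). Hnrnpdl, a relative of the decay factor Hnrnpd, was measured at 74.8, 80.3 and 72.2 FPKM in IVM and 103, 104 and 111 FPKM in IVO samples without overlap (log2FC 0.48, adjusted p = 0.0664 as deposited, 0.0243 after median-ratio scaling). Hnrnpul2 was at 6.85, 7.05 and 8.88 FPKM in IVM and 11.4, 11.5 and 10.3 FPKM in IVO samples (log2FC 0.50, adjusted p = 0.114 as deposited, 0.028 after median-ratio scaling). Hnrnpll, known for splicing of Ptprc in lymphocytes, was at 0.8, 0.39 and 0.91 FPKM in IVM and 1.57, 1.41 and 1.2 FPKM in IVO samples, again without overlap (log2FC 0.50, adjusted p = 0.21 in limma). Hnrnpa3 (56.9 to 95.9 FPKM), Hnrnpu (30.9 to 48.6 FPKM), Hnrnpab (11.7 to 20.3 FPKM), Hnrnpd (6.64 to 10.2 FPKM), Hnrnpm (3.61 to 6.76 FPKM), Hnrnpl (3.41 to 5.81 FPKM) and Hnrnpa0 (2.57 to 4.22 FPKM) had overlapping groups.

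Of the 17 tested members outside the SR and hnRNP families, 2 fell (11.8%, against 21.5% of all tested genes) and 15 did not pass. Esrp2 (ENSMUSG00000084128, chr8:106853859-106864027, minus strand), an epithelial splicing regulator, was measured at 240.4, 257 and 232 FPKM in IVM and 155, 152 and 144 FPKM in IVO samples, a difference of 1.62 times in the mean (log2FC -0.69, SE 0.149, adjusted p = 0.0171 in limma). Leaving out any IVO sample ended the call, with adjusted p-values of 0.0522, 0.0596 and 0.0517 without IVO replicates 1 to 3. Its paralog Esrp1, which is required for oocyte meiosis, was measured at 34.4, 30.3 and 40.5 FPKM in IVM and 38.9, 41.9 and 37.6 FPKM in IVO samples, and the groups overlapped (log2FC 0.18, SE 0.188, adjusted p = 0.548 in limma). Rbfox3 (ENSMUSG00000025576, chr11:118380442-118802423, minus strand), known as the neuronal marker NeuN, was low, at 1.45, 2.43 and 1.97 FPKM in IVM and 0.39, 0.39 and 0.69 FPKM in IVO samples (log2FC -0.98, SE 0.264, adjusted p = 0.0363 in limma). All its values stood above the level of 3 fragments, 0.0524 to 0.0620 FPKM, and its call held only without IVM replicate 1 (adjusted p up to 0.104 in the other fits). After median-ratio scaling, Esrp2 (log2FC -0.37, adjusted p = 0.144) and Rbfox3 (log2FC -0.81, adjusted p = 0.0707) did not pass.

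Rbfox2, which promotes or represses exons according to where it binds beside them, was the most abundant member, ranking 318 of all genes listed. It was measured at 983, 1494 and 1294 FPKM in IVM and 925, 757 and 819 FPKM in IVO samples, and every IVO value was lower (log2FC -0.58, SE 0.191, adjusted p = 0.0694 in limma). Without IVM replicate 1 it passed (adjusted p = 0.0421). Rbfox1 was at 97.3, 77.7 and 67.3 FPKM in IVM and 82.1, 61.9 and 54.4 FPKM in IVO samples, with overlapping groups. The muscleblind proteins, which bind CUG repeats and control mRNA localization, were scarce. Mbnl3 stood at 3.12, 2.86 and 2.41 FPKM in IVM and 0.96, 2.0 and 1.62 FPKM in IVO samples (log2FC -0.61, SE 0.258, adjusted p = 0.136 in limma), and Mbnl1 at 2.01, 1.86 and 2.5 FPKM in IVM and 1.84, 0.7 and 1.04 FPKM in IVO samples. Neither gene's groups overlapped, the IVO values being lower. Mbnl2 was listed at 0 in the IVM samples and at 0.08, 0.02 and 0.25 FPKM in the IVO samples, where 3 fragments are worth 0.0356 to 0.0421 FPKM, and was not tested.

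The CELF proteins bind GU-rich RNA, and CELF1 also promotes deadenylation of stored mRNA. Celf2, the most abundant of them, was measured at 52.2, 42.4 and 51.1 FPKM in IVM and 66.8, 64.5 and 66.1 FPKM in IVO samples (log2FC 0.44, SE 0.173, adjusted p = 0.114 as deposited, 0.024 after median-ratio scaling). Celf1 lay the other way, at 11.4, 13.6 and 17.5 FPKM in IVM and 9.16, 8.99 and 5.15 FPKM in IVO samples (log2FC -0.80, SE 0.279, adjusted p = 0.0789 in limma). Celf3, mainly known from neurons, was at 6.69, 2.46 and 5.12 FPKM in IVM and 9.27, 10.8 and 11.3 FPKM in IVO samples, and missed the threshold with a log2FC of 1.06 (SE 0.318, adjusted p = 0.0509 as deposited, 0.0263 after median-ratio scaling). In each of these 3 genes the groups did not overlap. Celf6 ranged from 4.83 to 11.6 FPKM with overlapping groups. Celf5 (0.17 to 0.71 FPKM) and Celf4 (0.18 to 0.24 FPKM) were under the filter.

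Among the polypyrimidine tract binding proteins, which mask splice sites, Ptbp2 was the most abundant at 71.4, 111 and 87.5 FPKM in IVM and 90.4, 89.4 and 74.2 FPKM in IVO samples (log2FC -0.071, SE 0.216, adjusted p = 0.847 in limma). Ptbp1 was at 13.5, 7.93 and 21.2 FPKM in IVM and 16.5, 18.9 and 15.1 FPKM in IVO samples, and its IVM samples alone spanned the IVO range. Ptbp3 ranged from 4.97 to 9.45 FPKM, and all 3 genes had overlapping groups. Of the ELAVL proteins, which bind AU-rich elements and stabilize mRNA, Elavl2 was the most abundant, at 67.5, 75.8 and 90.1 FPKM in IVM and 69.01, 63.6 and 74.9 FPKM in IVO samples (log2FC -0.16, SE 0.185, adjusted p = 0.578 in limma). Elavl1, the widely expressed HuR, was at 9.47, 6.87 and 9.11 FPKM in IVM and 13.1, 11.8 and 12.2 FPKM in IVO samples without overlap (log2FC 0.51, adjusted p = 0.117 as deposited, 0.0277 after median-ratio scaling). Elavl3 ranged from 1.8 to 5.87 FPKM with overlapping groups. Elavl4 was listed at 0 in the IVM samples and in IVO replicate 2, and at no more than 0.06 FPKM elsewhere, with 3 fragments worth 0.0391 to 0.0462 FPKM.

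In the order of mean level per length, Rbfox2 (1257 ± 257 FPKM in IVM, SD, n = 3) stood first in both groups. In IVM oocytes Hnrnpr followed at 344 ± 68.1 FPKM, then Esrp2 at 243 ± 12.5 FPKM and Hnrnpul1 at 233 ± 26.05 FPKM, and the values of Esrp2 and Hnrnpul1 overlapped. In IVO oocytes Hnrnpa1 came second at 224 ± 2.43 FPKM, ahead of Hnrnpc at 196 ± 0.896 FPKM, Hnrnpk at 195 ± 26.9 FPKM and Hnrnpf at 178 ± 8.96 FPKM. The values of Hnrnpk overlapped those of all 3 others, so its place among them is not resolved. The IVO mean of Hnrnpr was 159 ± 33.01 FPKM, below the means of these 4, but its values overlapped those of Hnrnpf and Hnrnpk, so this order is not resolved either. The level of Hnrnpr per length rests on a deposited length of 21452 bases, the longest of the members, and how that length was defined is not given in the sources used here.

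Since a ratio of 2 genes within a library does not depend on how the library is scaled, apart from the pseudocount, 13 pairs of related members with at least 1 FPKM each were also compared as log2 ratios of (FPKM + 1). For 8 of the 13 the IVM and IVO ratios did not overlap, which gives p = 0.1 in an exact two-sided permutation test, the smallest that 3 against 3 samples allow (0.162 after adjustment over the 13 pairs), so no pair could pass. How often ratios of unrelated genes are apart was not computed, so this count is not a trait of related members. Single tested genes were apart with higher IVO values in 9.62% and with lower IVO values in 32.6%. The Celf1/Celf2 ratio went from -2.10, -1.58 and -1.50 in IVM to -2.74, -2.71 and -3.45 in IVO samples, a difference of -1.24. Hnrnpul1/Hnrnpul2 went from 4.87, 5.02 and 4.41 in IVM to 3.26, 3.73 and 3.79 in IVO samples, a difference of -1.17. With the pseudocount of 1 these were the 2 largest differences. Their order changed without IVM replicate 3 (-1.12 for Celf1/Celf2 and -1.35 for Hnrnpul1/Hnrnpul2) or without IVO replicate 3 (-0.9987 and -1.27). In both pairs the first gene lost ground to the second in IVO oocytes.

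The ratio of Hnrnpl to Hnrnpll was 1.92, 1.73 and 1.83 in IVM and 0.92, 0.94 and 1.003 in IVO samples, close together within each group, a difference of -0.87. Hnrnpll lay under 1 FPKM in the IVM samples (0.39 to 0.91 FPKM). The size of this difference, and its place in the order of the pairs, therefore depend on the pseudocount. For Esrp1/Esrp2 it was -2.77, -3.04 and -2.49 in IVM and -1.97, -1.83 and -1.90 in IVO samples, a difference of 0.87 towards Esrp1. Srsf3 exceeded Srsf7 in all 3 IVO samples (0.45, 0.32 and 0.00225) and was below it in all 3 IVM samples (-0.80, -0.45 and -0.18). The differences of the remaining 3 pairs without overlap were 0.67 for Elavl1/Elavl2, 0.65 for Hnrnpa1/Hnrnpa2b1 and -0.53 for Srsf4/Srsf6. The ratios of Tra2a/Tra2b, Ptbp1/Ptbp2, Hnrnpd/Hnrnpdl, Hnrnph1/Hnrnph2 and Srsf1/Srsf9 overlapped between the groups, with differences of -0.25, 0.39, -0.25, -0.39 and 0.51. The genes of these pairs that were not given above had a log2FC of 0.30 (Srsf1), 0.042 (Srsf6), -0.22 (Srsf9), 0.24 (Hnrnpd), -0.37 (Hnrnpl) and 0.32 (Ptbp1), with adjusted p-values of 0.497, 0.914, 0.622, 0.456, 0.309 and 0.542 in limma.

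**Figure D3:**
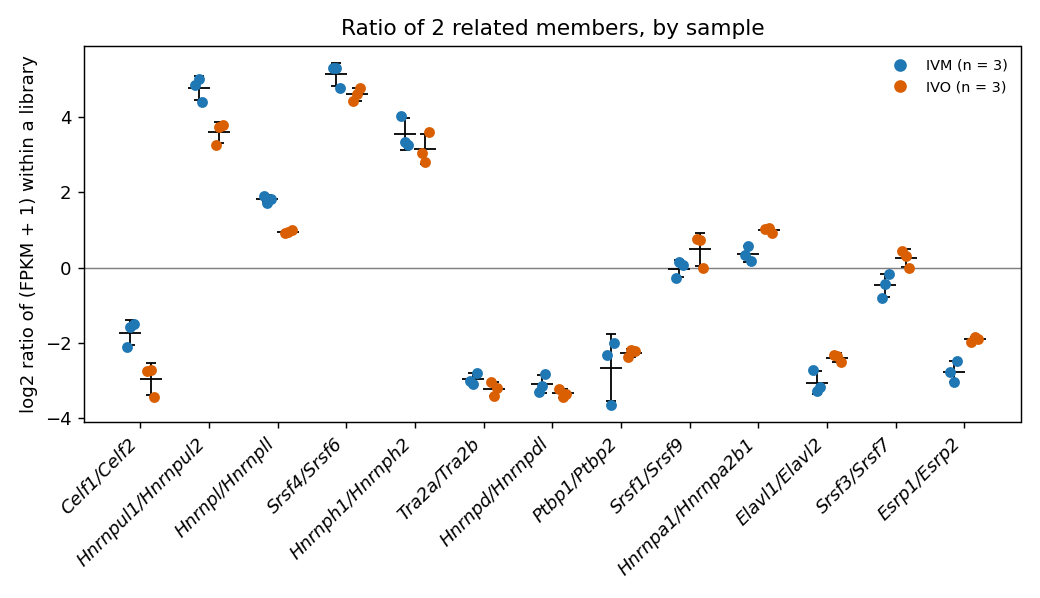
Log2 ratio of (FPKM + 1) of 2 related members within each library, for the 13 pairs compared, with 1 point per sample and black lines for the mean and SD. The groups are apart in 8 pairs, among them Celf1/Celf2, with ratios of -2.11 to -1.50 in the IVM group and -3.45 to -2.71 in the IVO group.

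The enzymes that act on SR proteins were followed as a list of 12 kinases and phosphatases, of which 11 were tested, 2 rose (18.2%, against 1.87% of all tested genes), 1 fell (9.09%, against 21.5%) and 8 did not pass. Both that rose are CLK kinases, which phosphorylate SR proteins in the nucleus. Clk4 was measured at 2.62, 3.6 and 2.47 FPKM in IVM and 7.43, 6.78 and 6.62 FPKM in IVO samples (log2FC 1.04, SE 0.214, adjusted p = 0.0148 in limma). Clk1 was far more abundant, at 462, 575 and 405 FPKM in IVM and 733, 837 and 737 FPKM in IVO samples (log2FC 0.69, SE 0.176, adjusted p = 0.0303 in limma). Neither overlapped between the groups, whereas Clk2 (log2FC 0.32, adjusted p = 0.327) and Clk3 (log2FC 0.065, adjusted p = 0.871) did. Srpk1, the cytoplasmic kinase that sends SR proteins to the nucleus, was at 431, 558 and 684 FPKM in IVM and 630.0, 639 and 549 FPKM in IVO samples, also with overlap. Its paralog Srpk2 was at 244, 179 and 294 FPKM in IVM and 302, 311 and 321 FPKM in IVO samples without overlap (log2FC 0.41, adjusted p = 0.206 as deposited, 0.0413 after median-ratio scaling). Ppp1cc, a catalytic subunit of the phosphatase PP1, fell from 74.5, 58.03 and 78.5 FPKM in IVM to 35.2, 36.9 and 33.9 FPKM in IVO samples (log2FC -0.96, SE 0.189, adjusted p = 0.0123 in limma). The list median was 0.06.

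**Figure D4:**
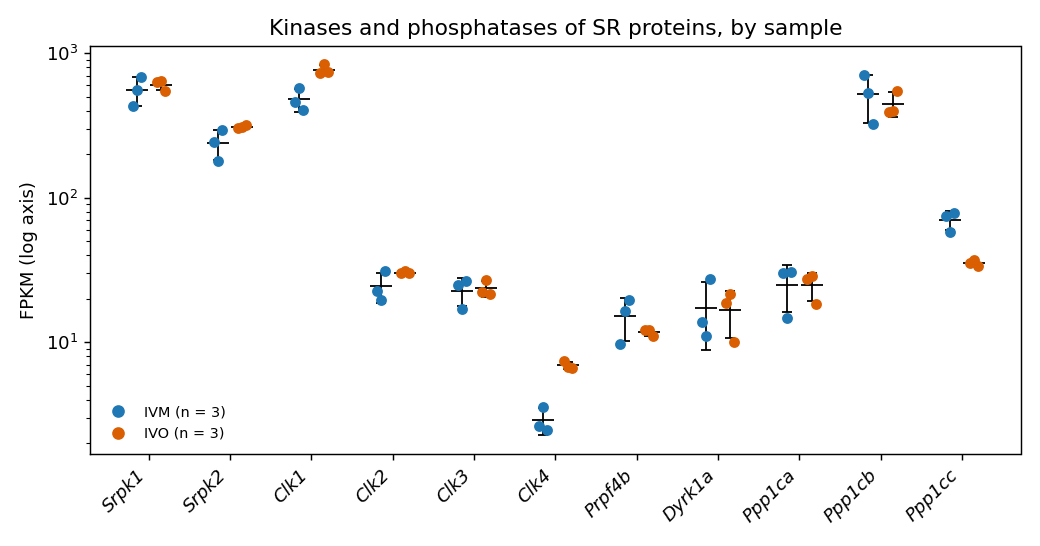
FPKM on a log axis of the 11 tested kinases and phosphatases of SR proteins, with 1 point per sample and black lines for the mean and SD of each group. Clk1, Clk4 and Srpk2 lie higher in all 3 IVO samples than in the IVM samples and Ppp1cc lower, with Ppp1cc at 58.03 to 78.5 FPKM in the IVM group and 33.9 to 36.9 FPKM in the IVO group.

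In the 4 other lists, except that of nuclear import, the number of genes higher or lower also changed with median-ratio scaling. Of 21 tested SR-related proteins, 1 fell (4.76%, against 21.5% of all tested genes), Scaf11, from 333, 745 and 352 FPKM in IVM to 78.04, 82.9 and 129.8 FPKM in IVO samples (log2FC -2.22, SE 0.357, adjusted p = 0.00636 in limma), and the list median was 0.17. All 3 IVO values were higher for 6 of the 21 (against 9.62% of all tested genes) and lower for 2 (against 32.6%). After median-ratio scaling 4 were higher (19.0%, against 7.19%), namely Srek1 (adjusted p = 0.025), Rbm39 (0.0333), Rbm25 (0.0342) and Scaf1 (0.0498). Of 32 tested splicing regulators of further families, 5 fell and none rose by limma (7 and 1 at an unadjusted p under 0.05), which is 15.6% lower against 21.5%, with a median of -0.14. After median-ratio scaling 2 were lower and 3 higher (9.38%, against 7.19%), the latter being Rbm17 (adjusted p = 0.0338), Pcbp1 (0.0363) and Qk (0.0432). Those with the largest change were the germ cell RNA-binding protein Ybx2, at 47.8, 25.4 and 47.3 FPKM in IVM and 5.13, 4.99 and 5.4 FPKM in IVO samples (log2FC -2.68, adjusted p = 0.00175 in limma), and Taf15, an RNA-binding protein and TBP-associated factor, at 113, 125 and 80.1 FPKM in IVM and 24.9, 24.0 and 30.2 FPKM in IVO samples (log2FC -1.95, adjusted p = 0.00221 in limma). The paraspeckle protein Pspc1 (log2FC -0.95, adjusted p = 0.0321) and Fubp1 (log2FC -0.92, adjusted p = 0.035) came next, and the fifth was the paraspeckle protein Nono (log2FC -0.86, adjusted p = 0.00568). Of 3 tested genes for the nuclear import of splicing factors, Tnpo1, which imports hnRNP A1, rose from 43.7, 31.8 and 53.4 FPKM in IVM to 74.8, 74.8 and 79.9 FPKM in IVO samples (log2FC 0.85, adjusted p = 0.0339 in limma), while the list median was -0.46. This 1 gene was 33.3% of those tested, against 1.87% higher among all tested genes. The 2 others did not pass and had a log2FC below 0. Of 13 tested genes of nonsense-mediated decay and the exon junction complex, 3 fell (23.1%, close to the 21.5% of all tested genes), among them the exon junction core protein Rbm8a (log2FC -1.78, adjusted p = 0.00709 in limma) and the endonuclease Smg6 (log2FC -0.68, adjusted p = 0.0465), with a median of 0.03. After median-ratio scaling Pspc1 (adjusted p = 0.133), Fubp1 (0.114), Nono (0.0567) and Smg6 (0.285) did not pass, and the other genes of the 5 lists named here as higher or lower did.

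Reads of some members can be shared with copies or neighbours. Of 174 other genes annotated to the same KEGG orthologs as the members, 10 had a mean of at least 1 FPKM and none of them passed limma at an adjusted p under 0.05 (1 at an unadjusted p under 0.05). The processed pseudogene Srsf3-ps (chr11:98515177-98516487) was measured at 13.1, 21.4 and 10.5 FPKM in IVM and 23.6, 37.5 and 21.4 FPKM in IVO samples (log2FC 0.85, adjusted p = 0.103 in limma), so the level of Srsf3 is uncertain to the extent that reads were split between them. The non-coding gene Gm29824, annotated as an HNRNPA1 ortholog, stood at 703, 786 and 622 FPKM in IVM and 440.0, 693 and 729 FPKM in IVO samples, above Hnrnpa1 itself in each sample, which makes the level of Hnrnpa1 uncertain in the same way. The kit does not mark the strand, and exons of 8 of the 9 members that passed overlap a gene on the other strand, among them Trp53cor1 for Srsf3, Slc10a1 for Srsf5 and Nfatc3 for Esrp2, so reads of the overlapping stretches cannot be told apart.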

How the data were processed

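RNA-seq of 3 IVM and 3 IVO samples, grouped by their titles, was analysed. The authors amplified cDNA along its whole length (SMART-Seq v4), sequenced Nextera XT libraries as paired-end reads of 150 bases, aligned them to GRCm39 with HISAT2 2.1.0 (per the submitters' processing notes), estimated abundance with RSEM 1.3.3 and deposited FPKM per gene and sample, with group means (not used here) and a gene length whose definition is not given in the sources used here. The authors tested counts with DESeq2 1.24.0. Counts were not used here, so no count test was run.

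FPKM entered limma 3.58.1 in R 4.3.3 (lmFit, eBayes with trend, two-sided) as log2(FPKM + 1), unscaled, with the group alone, for the 18818 genes that reached 1 FPKM in the mean of the 6 samples, and p-values were adjusted by Benjamini-Hochberg over all of them. A DEG had |log2FC| ≥ 1 and an adjusted p under 0.05. Ratios of related genes were tested with exact permutation tests. The fit was tested on simulated data. Depth was inferred from the steps of low FPKM values among 13829 genes with 1 transcript. Of the low values used, 69.4% to 70.7% were within 0.1 of a whole fragment at the best-fitting depth and fragment length. Since the share of whole values stayed below nearly all, no reads were recovered for a count test.

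Positions, biotypes, overlaps and transcript ends come from GENCODE M39 on GRCm39, in which all 54 members were found. The members, gene lists, pairs and tests were chosen with earlier results of these data known. Full statistics are given for members with an adjusted p under 0.05, the most abundant member of each of the 9 name families, Srsf3 and Esrp1, genes of the pairs, up to 4 genes per further list by |log2FC| among those without overlap, and, chosen after their values were seen, members that passed after median-ratio scaling, further genes of the kinase list, Nono, cumulus markers and genes of the further lists that passed after that scaling. As alternatives, the pseudocount was set to 0.1, the filter dropped or raised to 5 FPKM, the libraries scaled by median ratio, by quantiles or to equal sums, the eBayes trend left out, and the replicate number fitted as a block. Further ones were the removal of the trend with gene length by lowess (span 0.3), Ensembl genes only and leaving out each sample. Splicing events were not analysed here. The values of 1 gene of the nonsense-mediated decay list are not reported here. Figures were drawn with matplotlib 3.10.9.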

Additional observations from a re-analysis of the deposited data

How the results depend on the processing

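Srsf3 and Srsf5 were higher in IVO oocytes at an adjusted p under 0.05 in limma under all 17 alternatives, while the number of members that passed changed with the scaling. The count of higher members was 5 as deposited, 12 with median-ratio scaling, 21 with quantile normalization, 11 with equal sums, 10 with the length trend removed, 3 without the eBayes trend and 2 to 4 leaving out 1 sample. Over all 18818 tested genes the higher count moved too, from 351 as deposited to 1353 with median-ratio scaling, 2787 with quantile normalization and 1083 with equal sums. It was 1302 with the length trend removed, 289 without the eBayes trend and 109 to 288 leaving out 1 sample. The count of lower members was 4 as deposited, 0 with median-ratio scaling, quantile normalization or the length trend removed (2, 1 and 4 at an unadjusted p under 0.05), 1 with equal sums and 1 to 3 leaving out 1 sample. Lower genes among all 18818 numbered 4050 as deposited, 2446 with median-ratio scaling, 2019 with quantile normalization and 1815 with the length trend removed. They numbered 2527 with equal sums and 2484 to 3415 leaving out 1 sample. Higher DEGs numbered 1 as deposited, 2 at a minimum of 5 FPKM or among Ensembl genes only, 5 with median-ratio scaling, 10 with quantile normalization, 4 with equal sums, 3 with the length trend removed and 0 to 1 leaving out 1 sample. Of all tested genes, 114 were higher DEGs as deposited, 88 of 11711 at a minimum of 5 FPKM and 84 of 13154 among Ensembl genes only. With median-ratio scaling they were 388, with quantile normalization 1097, with equal sums 397 and with the length trend removed 557. Leaving out 1 sample gave 82 to 130. Lower DEGs numbered 1 as deposited, 2 with a pseudocount of 0.1, 0 with each of the 3 scalings and with the length trend removed, and 0 to 1 leaving out 1 sample. Over all 18818 genes, lower DEGs numbered 3366 as deposited and 3328 with a pseudocount of 0.1. They were 2102 with median-ratio scaling, 1580 with quantile normalization, 2131 with equal sums and 1511 with the length trend removed. Leaving out 1 sample gave 2276 to 3174. The member median was 0.16 as deposited, 0.10 without a filter, 0.48 with median-ratio scaling, 0.64 with quantile normalization, 0.49 with equal sums, 0.37 with the length trend removed and 0.072 to 0.25 leaving out 1 sample. The median of all genes moved as well, being -0.30, -0.07, -0.04, 0.17, -0.03, 0.05 and -0.33 to -0.27 in the same order. The member median lay above it by 0.45 as deposited, 0.17 without a filter, and 0.52, 0.47 and 0.52 with the 3 scalings. This distance was 0.31 with the length trend removed, 0.34 among Ensembl genes only and 0.38 to 0.51 leaving out 1 sample. The cause of these changes was not tested.

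The deviations of same-numbered samples showed little correlation (-0.06, -0.02 and -0.11), which cannot settle whether their pools were handled together. With the replicate block, 2 members were higher (Srsf3 and Srsf5) and 1 lower (Hnrnpr), and with the block and the length trend removed 2 were higher, both DEGs, 0 lower (2 at an unadjusted p under 0.05) and 0 lower DEGs, with a median of 0.37. Over all 18818 genes, 118 were higher and 3027 lower with the block. With the block and the length trend removed, 189 were higher (188 of them DEGs) and 741 lower, all DEGs, with a median of 0.05.

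Of the 49 members, the log2FC changed sign for 9 with median-ratio scaling, 11 with quantile normalization, 9 with equal sums, 7 with the length trend removed (with or without the block) and 1 to 8 leaving out 1 sample, most without IVM replicate 2. Among those with full statistics above, with median-ratio scaling it was 0.16 for Elavl2, 0.18 for Hnrnpa2b1, 0.25 for Ptbp2 and 0.010 for Srsf9, with quantile normalization 0.36 for Elavl2, 0.37 for Hnrnpa2b1, 0.10 for Hnrnpl, 0.44 for Ptbp2, 0.034 for Srsf4 and 0.22 for Srsf9, with equal sums 0.17 for Elavl2, 0.19 for Hnrnpa2b1, 0.26 for Ptbp2 and 0.00672 for Srsf9, and with the length trend removed, with or without the block, 0.077 for Elavl2, 0.053 for Hnrnpa2b1, 0.13 for Ptbp2 and 0.042 for Srsf9. Leaving out 1 sample, the log2FC of Ptbp2 ranged from -0.22 to 0.092, that of Ptbp1 from -0.016 to 0.64, that of Srsf6 from -0.051 to 0.13, and the Ptbp1/Ptbp2 ratio difference from -0.11 to 0.72. At 3 samples per group and an inferred depth of 16500000 to 19520000 fragments, the members under 1 FPKM were not tested.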
